A study of Mus musculus with 10 samples.

Results

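The genes described here are 10 junction genes of the renal tubule: the claudins Cldn1, Cldn2, Cldn3, Cldn4, Cldn7, Cldn8 and Cldn10 and the cadherins Cdh1, Cdh6 and Cdh16. They were taken by symbol from the 28808 genes listed in the deposited tables, and all 10 were listed in each of the 10 libraries. The data are single-cell RNA profiles of mouse kidney cortex made by Drop-seq, a droplet method that counts the 3' ends of transcripts by unique molecular identifiers (UMIs). The groups were a control of normal kidney, with 1 library, and injured kidney on days 1, 2 and 4, with 1 library each, and on days 7, 11 and 14, with 2 libraries each. All animals were 4 weeks old. The labels used here name no strain and no method of injury, and nothing in them says that the 2 libraries of a day came from separate animals, so the p-values measure the spread between these libraries only. In tests against the control, that spread came from days 7, 11 and 14, and the 1 control library was assumed to vary like them.

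Claudins are membrane proteins with extracellular loops that line up in the tight junction between neighbouring epithelial cells and set which ions pass between the cells. Some form pores: claudin-2 passes sodium and other cations in the proximal tubule, and claudin-10 has a cation-selective form in the thick ascending limb and an anion-selective form in the proximal tubule. Claudin-1, claudin-3, claudin-4, claudin-7 and claudin-8 are mostly described as sealing or anion-passing claudins, the last 3 chiefly in the distal nephron and collecting duct. Cadherins hold cells together below the tight junction. Cdh1 encodes E-cadherin, Cdh6 encodes K-cadherin, a cadherin of the developing proximal tubule, and Cdh16 encodes Ksp-cadherin, which is restricted largely to kidney epithelium. Leakiness of the tubule and loss of junctions are textbook features of acute kidney injury.

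Each cell was placed in a segment by raw UMIs of marker genes that included none of the 10: at least 3 UMIs from at least 2 genes of a segment's list, and at least 2 times the UMIs of any other list. The segments were proximal, thick ascending limb, distal convoluted, connecting and principal (called principal here), and intercalated. A further gate held cells with at least 2 UMIs of Havcr1, which encodes the injury marker KIM-1, and could overlap the proximal gate. Tubular cells were the cells of any of these gates together with cells that had tubular epithelial UMIs and no segment. Epcam was among the genes that gave those epithelial UMIs. After filtering, a library held 3398 to 6633 cells and 1781 to 6170 tubular cells, out of 7091848 to 31632205 deposited UMIs. Outside the marker lists, Kap and Cyp2e1 led the proximal gate, Egf the thick limb gate, Calb1 and Sfrp1 the distal convoluted gate, and Atp6v1b1 was among the leading genes of the intercalated gate. Sfrp1 was also among the leading genes of the thick limb gate, and Egf among those of the distal convoluted gate. In the intercalated gate Gpr116, Spink8 and Serpinb9 came before Atp6v1b1. The principal gate was led outside its own list by Sprr2f, Gm10664, Spink8, Tmsb4x and Krt18, which include epithelial stress genes. The smallest sums were 43 distal convoluted and 54 intercalated cells in a library, so values of these segments rest on fewer UMIs. Levels below are UMI counts per sum, scaled to CPM with the TMM factors of edgeR (scaled CPM). They are compared between cells or days for 1 gene, not between genes. Called means a Benjamini-Hochberg adjusted p under 0.05 over all genes tested, from edgeR's quasi-likelihood test, and differences are on the log2 scale ± SE.

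Across segments the claudins divided the nephron into stretches with different sets. Cldn2 was highest in the proximal gate in 10 of 10 libraries, Cldn10 was highest in the thick limb in 10 of 10, and Cldn3, Cldn4, Cdh1 and Cdh16 were highest in principal cells in 10 of 10. Cldn7 was highest in principal cells in 8 libraries and Cldn8 in 7. Cldn1, a claudin of low level here, was highest in proximal cells in 9 of 10. Each segment was tested against the mean of the other 4 segments over all 10 libraries, with the library as a block, and Cdh6 did not pass the filter on low counts, which left 9 of the 10 genes.

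**Figure D1:**
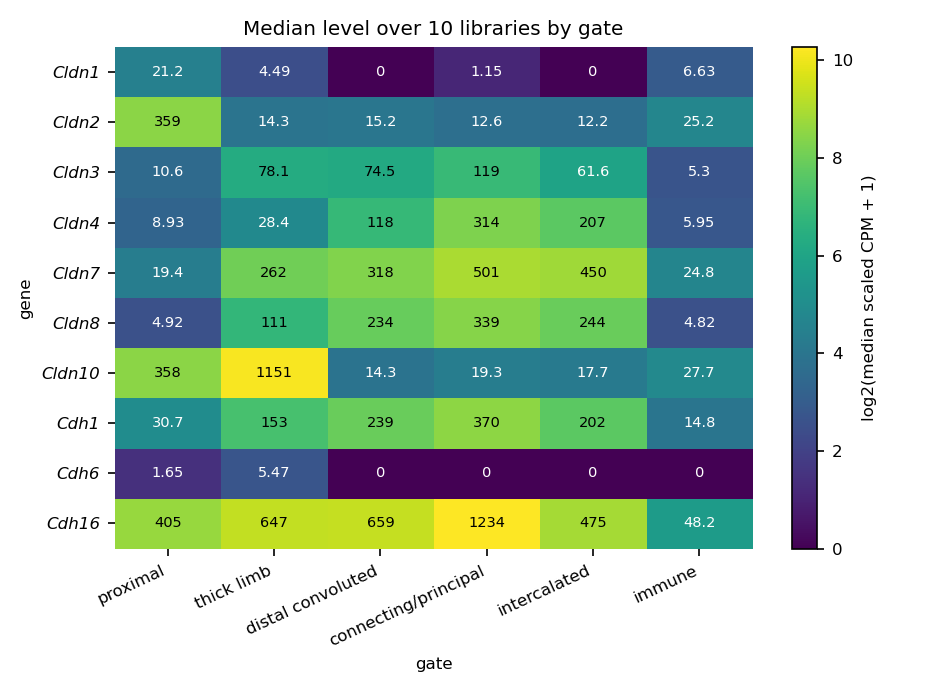
Median level over the 10 libraries of each gene (rows) in the 5 segment gates and in immune cells (columns). Numbers are scaled CPM, colour is log2 of the median plus 1, and values are to be read along a row: Cldn2 stands out in the proximal column and Cldn10 in the thick limb and proximal columns, while Cldn4, Cldn7, Cldn8 and Cdh1 peak in the connecting and principal column.

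Cldn2 ranged from 279 to 409.9 scaled CPM in proximal cells, with a median of 359, against medians of 12.2 to 15.2 in the other 4 segments. The difference was 4.88 on the log2 scale in the edgeR test. Among the other 4 segments no neighbours in order of median differed in an exact permutation test over the libraries (two-sided sign flips, 40 neighbour comparisons, adjusted p of 0.2595 to 0.8226). Immune cells, which should lack tubular claudins, held 7.10 to 54.4 scaled CPM of Cldn2, and the medians of the other 4 segments were below the immune median of 25.2. Cldn2 in proximal cells had a counting interval (exact Poisson, 95%) above that of immune cells in 10 of 10 libraries.

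Cldn10 ranged from 254 to 2121 scaled CPM in the thick limb, with a median of 1151, and from 109 to 547 in proximal cells, with a median of 358. Thick limb exceeded proximal in 10 of 10 libraries (exact permutation test, p = 0.001953, the smallest that 10 libraries allow, adjusted p = 0.005208). The other 3 segments had medians of 14.3 to 19.3, at the immune level. Against the other segments Cldn10 was higher by 4.88 in thick limb and by 3.02 in proximal cells.

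Cldn3, Cldn4, Cldn7 and Cldn8 were all low in proximal cells, by 2.64, 4.14, 4.45 and 5.35 on the log2 scale against the other segments. Cldn4 had medians of 8.93 in proximal, 28.4 in thick limb, 118 in distal convoluted, 207 in intercalated and 314 in principal cells. Principal cells exceeded intercalated cells in 10 of 10 libraries, while intercalated and distal convoluted cells did not differ beyond their spread (adjusted p = 0.2748, exact permutation). Cldn8 followed a like order, with medians of 4.92, 111, 234, 244 and 339 in proximal, thick limb, distal convoluted, intercalated and principal cells. Here too the intercalated and distal convoluted levels did not differ beyond their spread (adjusted p = 0.8348, exact permutation). Cldn7 was spread more evenly over the distal segments, with medians of 262 in thick limb, 318 in distal convoluted, 449 in intercalated and 501 in principal cells, and each step in this order passed the exact permutation test. In proximal cells neither Cldn4, Cldn7 nor Cldn8 had a counting interval above that of immune cells in any library.

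Of the cadherins, Cdh16 was the most widely spread: medians ran from 405 in proximal cells to 1234 in principal cells, with 475 in intercalated, 647 in thick limb and 659 in distal convoluted cells. The thick limb and distal convoluted levels of Cdh16 could not be told apart (adjusted p = 0.9164, exact permutation). Cdh1 had a median of 30.7 in proximal cells against 153 in thick limb, 202 in intercalated, 239 in distal convoluted and 370 in principal cells, and the proximal level was 2.81 lower than the other segments on the log2 scale. Cdh6 was rare everywhere: its median was 5.47 scaled CPM in thick limb and 1.65 in proximal cells, and 0 in the other 3 segments.

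In counts, 9 of 9 tested genes differed between proximal cells and the other segments (3 higher, 6 lower), where 69.7% of all genes tested were called. The thick limb had 5 called (3 higher, 2 lower; background 35.9%), distal convoluted cells 6 (4 higher, 2 lower; 29.5%), principal cells 9 (6 higher, 3 lower; 43.5%) and intercalated cells 7 (4 higher, 3 lower; 29.7%). With a gate ratio of 5 the distal convoluted calls of Cldn2, Cldn4, Cldn7 and Cdh1 were lost. With library totals in place of TMM, the share of calls that were higher moved. It went from 52.0% to 34.4% in proximal and from 51.4% to 33.0% in distal convoluted cells. In principal cells it went from 50.5% to 73.5%, and in intercalated cells from 46.8% to 64.3%. No called direction of the 9 genes changed, but the intercalated call of Cdh16 was lost (-0.21). With control and days 11 and 14 only, the intercalated calls of Cldn2 (-1.275) and Cdh1 (0.27) were lost.

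Within the proximal gate, cells with more UMIs of convoluted markers were set against cells with more UMIs of straight markers in the 9 libraries that held enough of both. Cldn3 was higher in straight cells in 9 of 9 libraries, with medians of 13.9 against 3.74 scaled CPM (mean log2 difference of -1.44 for convoluted minus straight, adjusted p = 0.009766, exact permutation test over 10 genes). Cdh1 was likewise higher in straight cells in 9 of 9 (39.0 against 20.1) and Cldn10 in 8 of 9 (446 against 319). Cldn1 was higher in convoluted cells in 8 of 9 libraries (19.7 against 8.10), Cdh16 in 9 of 9 (422 against 320) and Cldn4 in 9 of 9 (6.55 against 1.56), though Cldn4 was at the immune level in both. In the whole gate the interval was above the immune one in 1 of 10 libraries for Cldn3, 2 for Cdh1 and 4 for Cldn1. For Cldn10 and Cdh16 it was above in 10 of 10. The straight sums of days 1 and 2 held 2 and 4 UMIs of Cldn3 and 1 and 2 of Cldn4. For Cldn2 the difference was small, 0.16 on the log2 scale, with 7 of 9 libraries higher in convoluted cells. Cldn7, Cldn8 and Cdh6 did not pass the test. The mix of the proximal gate moved with the day, and its part in the proximal values was not tested. The gate held 830 convoluted and 2384 straight cells in the control and 601 and 28 on day 1. The day 2 library had 1490 and 35, and that of day 4 had 1164 and 587. On day 7 it held 188 and 9 in the first library and 167 and 100 in the second, and on days 11 and 14 straight cells were again the more numerous in all 4 libraries.

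The promoter sequences of 3 claudins that the results turn on are shown so that their upstream regions can be compared: Cldn4 and Cldn1, which rose on day 7, and Cldn10, which was lower in tubular cells. They were chosen after their values were seen. The RefSeq promoter table (GRCm38.p6) matched 7 of the 10 genes, with 9 start sites. The 250 bases upstream of each start were searched on both strands for TGANTCA (the AP-1 motif), CAGGTG (an E-box bound by Snail and Zeb factors) and GTTAAT (a half-site of the HNF1 motif), which do not overlap one another. Sequences run 5′ to 3′ on the gene's strand, and capitals mark motif matches, with CACCTG and ATTAAC as the reverse complements of CAGGTG and GTTAAT.
Cldn4, chr5:134946935-134947184, minus strand: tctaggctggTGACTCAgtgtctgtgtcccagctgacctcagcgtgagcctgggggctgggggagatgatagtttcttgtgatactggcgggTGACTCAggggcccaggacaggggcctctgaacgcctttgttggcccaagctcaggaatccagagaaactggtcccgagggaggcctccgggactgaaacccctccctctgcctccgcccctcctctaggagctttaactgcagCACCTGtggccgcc
Cldn1, chr16:26371840-26372089, minus strand: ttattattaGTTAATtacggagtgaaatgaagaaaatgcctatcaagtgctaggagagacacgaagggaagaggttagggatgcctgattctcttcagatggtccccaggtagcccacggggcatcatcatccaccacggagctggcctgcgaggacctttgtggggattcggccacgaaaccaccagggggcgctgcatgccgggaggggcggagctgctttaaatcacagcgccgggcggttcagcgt
Cldn10, upstream start, chr14:118787621-118787870, plus strand: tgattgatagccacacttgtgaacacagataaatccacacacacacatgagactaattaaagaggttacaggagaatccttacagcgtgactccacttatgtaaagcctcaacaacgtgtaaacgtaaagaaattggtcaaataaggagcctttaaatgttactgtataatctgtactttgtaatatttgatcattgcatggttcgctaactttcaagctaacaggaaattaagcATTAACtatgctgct
Cldn10, downstream start, chr14:118854700-118854949, plus strand: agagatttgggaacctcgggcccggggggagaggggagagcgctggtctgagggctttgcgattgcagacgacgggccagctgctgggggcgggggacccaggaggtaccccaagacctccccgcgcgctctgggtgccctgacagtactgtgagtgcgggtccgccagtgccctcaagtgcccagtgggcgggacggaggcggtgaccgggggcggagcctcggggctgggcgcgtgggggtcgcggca
The Cldn4 window held 2 matches to TGANTCA and 1 to CAGGTG. The Cldn1 window and the upstream Cldn10 window each held 1 match to GTTAAT, and the downstream Cldn10 window held no match to any of the 3. Of the 32851 windows in the table, 6.75% held TGANTCA, 17.2% held CAGGTG and 6.43% held GTTAAT, so that a match is a description of these letters only. Cldn10 has 2 starts, and counts summed by gene symbol do not separate their transcripts. Cldn3 (chr5:134986214-134987472, plus strand, GENCODE M21) and Cldn4 (chr5:134945119-134946934, minus strand) lie near each other and point away from each other, and the antisense gene Wbscr25 overlaps Cldn3. The other genes lie at chr16:26356642-26371841 (Cldn1), chrX:139800828-139811386 (Cldn2), chr11:69964779-69967885 (Cldn7), chr16:88560828-88563183 (Cldn8), chr14:118787908-118875489 (Cldn10), chr8:106603351-106670246 (Cdh1), chr15:13028701-13173675 (Cdh6) and chr8:104601911-104624396 (Cdh16).

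Over the time course, Cldn1, Cldn3, Cldn4 and Cldn7 were far above the control in tubular cells on day 7, and Cldn2 and Cldn10 were below it. In tubular sums as a whole, fewer cells of a type and less RNA per cell cannot be told apart, and the make-up of the tubular cells moved with the day. Proximal cells were 67.6% of tubular cells in the control, 26.2%, 57.5% and 44.1% on days 1, 2 and 4, 13.1% and 13.96% on day 7, and 71.6% to 78.2% on days 11 and 14. Principal cells were 4.90% in the control and 18.6% and 19.7% on day 7. Cells with tubular epithelial UMIs and no segment were 306 of 5183 tubular cells in the control and 932 of 2723 on day 1. On days 2 and 4 they were 613 of 2911 and 974 of 4783. The day 7 libraries had 633 of 1781 and 693 of 2300, and those of days 11 and 14 had 266 to 405 such cells. No segment value below covers them. The median mitochondrial share of UMIs in a tubular cell was 24.9% in the control, 4.51% and 6.31% on day 7 and 12.1% to 19.1% on days 11 and 14. The part of both in the tubular values was not tested, and within-segment values follow.

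**Figure D2:**
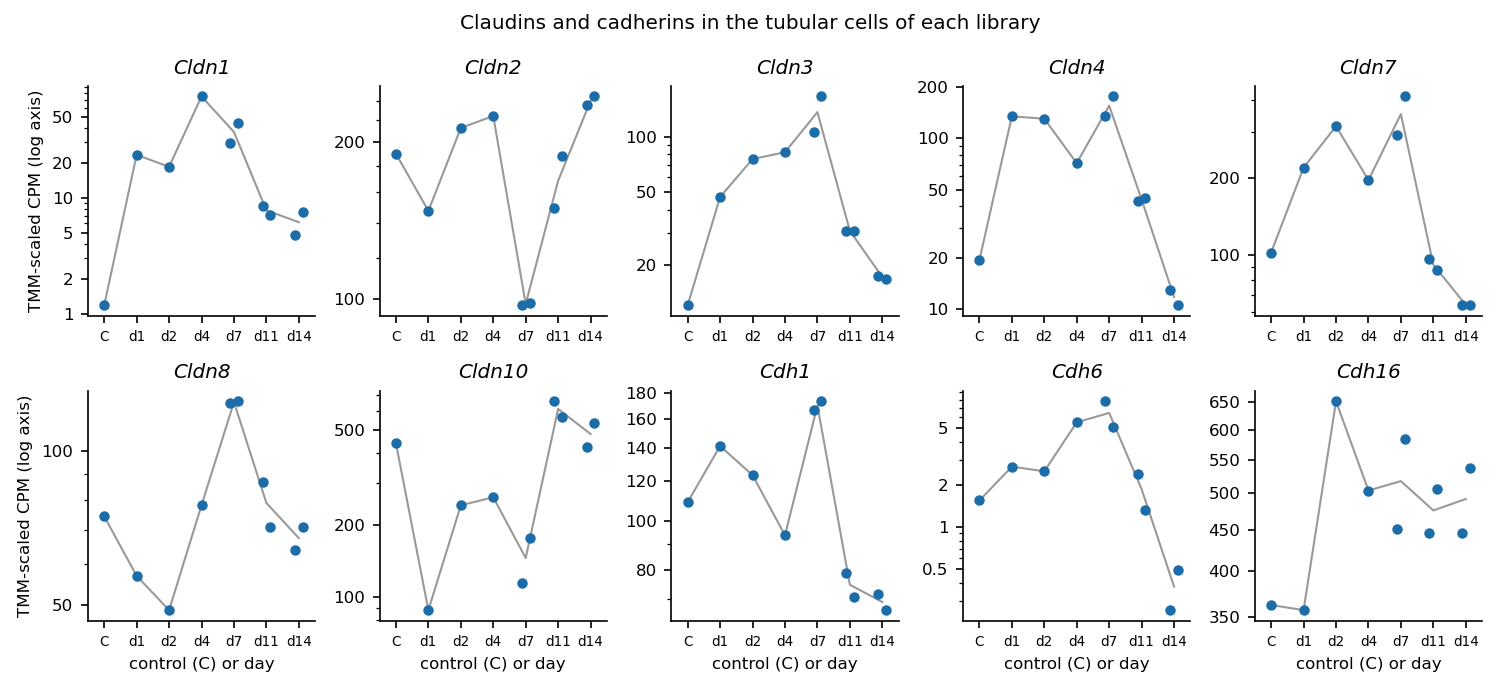
Scaled CPM (log axis) of the 10 genes in the tubular cells of the control (C) and of days 1 to 14, with 1 point per library and a line through the mean of each day. The 2 day 7 libraries lie above the control for Cldn1, Cldn3, Cldn4, Cldn7, Cldn8, Cdh1, Cdh6 and Cdh16 and below it for Cldn2 and Cldn10.

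Cldn1 stood at 1.18 scaled CPM in the control, at 23.4, 18.5 and 74.8 on days 1, 2 and 4, at 29.8 and 44.02 on day 7, at 8.42 and 7.14 on day 11 and at 4.75 and 7.53 on day 14. It was 31.4-fold higher on day 7 (4.97 ± 0.42 on the log2 scale, edgeR adjusted p = 1.802e-05), and all 9 injury libraries were above the control. Cldn1 remained called on day 11 (2.71, adjusted p = 0.004001, edgeR) and on day 14 (2.37 ± 0.41, 5.16-fold, adjusted p = 0.01164, edgeR).

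Cldn3 stood at 12.1 in the control, at 46.9, 75.5 and 82.3 on days 1, 2 and 4, at 106 and 166 on day 7, at 30.5 and 30.8 on day 11 and at 17.5 and 16.9 on day 14. Cldn4 stood at 19.4 in the control, at 135, 131 and 71.6 on days 1, 2 and 4, at 135 and 176 on day 7, at 42.8 and 45.0 on day 11 and at 13.0 and 10.5 on day 14. Both were high in every library from day 1 to day 7, and by day 14 the Cldn4 libraries were below the control. On day 7 Cldn3 was 11.3-fold higher (3.501 ± 0.30, edgeR adjusted p = 2.124e-05) and Cldn4 8.06-fold higher (3.01 ± 0.26, edgeR adjusted p = 2.217e-05). Cldn7, at 102 in the control and 293 and 413 on day 7, was 3.46-fold higher (1.79 ± 0.26, edgeR adjusted p = 4.559e-04). Its day 14 values of 63.7 and 64.2 lay under the control, a difference that was not called.

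The pore-forming claudins went the other way on day 7. Cldn10 stood at 442 in the control, at 88.3, 243 and 262 on days 1, 2 and 4, at 115 and 177 on day 7, at 662 and 567 on day 11 and at 428 and 538 on day 14. It was lower by 1.59 ± 0.27 on day 7 (edgeR adjusted p = 0.001152), and every library from day 1 to day 7 was below every library outside those days. Cldn2 stood at 190 in the control, at 97.2 and 98.4 on day 7 and at 235 and 245 on day 14, and on days 1, 2 and 4 at 147, 213 and 224. It was lower by 0.96 ± 0.21 on day 7 (edgeR adjusted p = 0.005024). Library totals in place of TMM put the median difference of all tubular genes on day 7 at 0.83 in place of 0.05. The Cldn2 difference is then -0.17 and not called, and that of Cldn10 is -0.82 and still called.

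Cdh1 and Cldn8 had small differences on day 7, Cdh6 a larger one at a low level, and Cdh16 none that was called. Cdh1 stood at 109 in the control and at 167 and 173 on day 7 (0.64 ± 0.20, edgeR adjusted p = 0.031). The day 7 call was lost with all cells in place of tubular cells (0.25) and with no filter on low counts (0.57). It was also lost with only the groups compared (0.66) and without either day 14 library (0.65 and 0.65). Cdh1 was at 66.5 to 78.9 on days 11 and 14. Its differences from the control, -0.55 on day 11 and -0.66 on day 14, were not called. Some alternatives called them lower, on day 11 with all cells (-0.68) and on day 14 with library totals (-0.74) and DESeq2 (-0.72). Cldn8, at 74.4 in the control and 124 and 125 on day 7, was higher by 0.74 ± 0.21 (edgeR adjusted p = 0.0196), a call lost with all cells (0.32) and with only the groups compared (0.76). Cdh6 went from 1.54 in the control to 7.80 and 5.10 on day 7 (2.03 ± 0.49, edgeR adjusted p = 0.009099), and on day 14 was at 0.257 and 0.497. Cdh16, the kidney-specific cadherin, was at 362 in the control and at 451 and 584 on day 7, and its difference of 0.52 was not called.

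Of the 10 genes, 7 rose and 2 fell in tubular cells on day 7, against a background of 33.9% of genes called. On day 11, 3 were higher (Cldn1, Cldn3 and Cldn4; background 17.6%) and on day 14 only Cldn1 (background 7.56%). Without the second day 11 library the day 11 calls of Cldn3 and Cldn4 were lost (adjusted p = 0.05436 and 0.0578, edgeR). Day 11 against day 7 gave 9 called, 7 of them lower (43.7%), and day 14 against day 7 also 9, with 7 lower (46.0%). From day 11 to day 14 Cldn3, Cldn4 and Cdh6 fell further, by 0.84, 1.90 and 2.29 (12.2%), and the calls of Cldn3 and Cdh6 were lost without any 1 of the 4 libraries compared. Cldn10 rose 4.20-fold and Cldn2 by 0.78 on the log2 scale from day 7 to day 11, and with library totals the Cldn2 difference is -0.0055. The median difference of the 10 genes was 1.27, 0.33 and -0.0067 on days 7, 11 and 14, beside 0.05, 0.10 and 0.06 for all genes. The share of all calls that were higher was 47.9% on day 7 with TMM and 87.5% with library totals; on day 14 it was 57.7% and 46.9%, from day 7 to 11 it was 52.4% and 15.8%, from day 7 to 14 it was 52.8% and 14.4%, and from day 11 to 14 it was 50.2% and 37.5%. The comparisons with day 7 and with the control share their libraries.

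Within the thick limb, Cldn4 was nearly absent from the control. It had 1 UMI in 710 control thick limb cells, a level of 0.224 scaled CPM, against 92.8, 38.5 and 52.7 on days 1, 2 and 4 and 63.6 and 65.2 on day 7. Levels then came to 9.64 and 18.3 on day 11 and to 0.723 and 2.19 in the day 14 libraries. The ratio of day 7 to control was 289.6 with a 95% counting interval of 51.3 to 11500 (180 UMIs against 1, edgeR adjusted p = 1.67e-07), and on day 11 it was 59.3 (9.93 to 2412, 33 UMIs). All injury libraries up to day 11 lay above both day 14 libraries and the control, and on day 14 the ratio of 6.501 had an interval of 0.643 to 320. The share of thick limb cells with a Cldn4 UMI was 0.141% in the control (1 of 710, exact 95% interval 0.00357% to 0.782%). On day 7 the shares were 15% and 18.6%, and day 14 gave 0.247% and 0.737%. After each cell was thinned to 800 UMIs it was 0.141% in the control, 4.79% and 4.53% on day 7, and 0.247% in 1 day 14 library with 0 of 403 cells in the other, which allows a share of up to 0.744% by a floor of 3 cells and 0.911% by the exact 95% interval. Thinned shares in immune cells were 2.45% and 1.49% on day 7, and the counting interval of the level in the thick limb was above that of immune cells in 5 of 10 libraries. Median depth on day 7 was 1776 and 2300 UMIs in a thick limb cell and 1225 and 1591 in an immune cell.

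**Figure D3:**
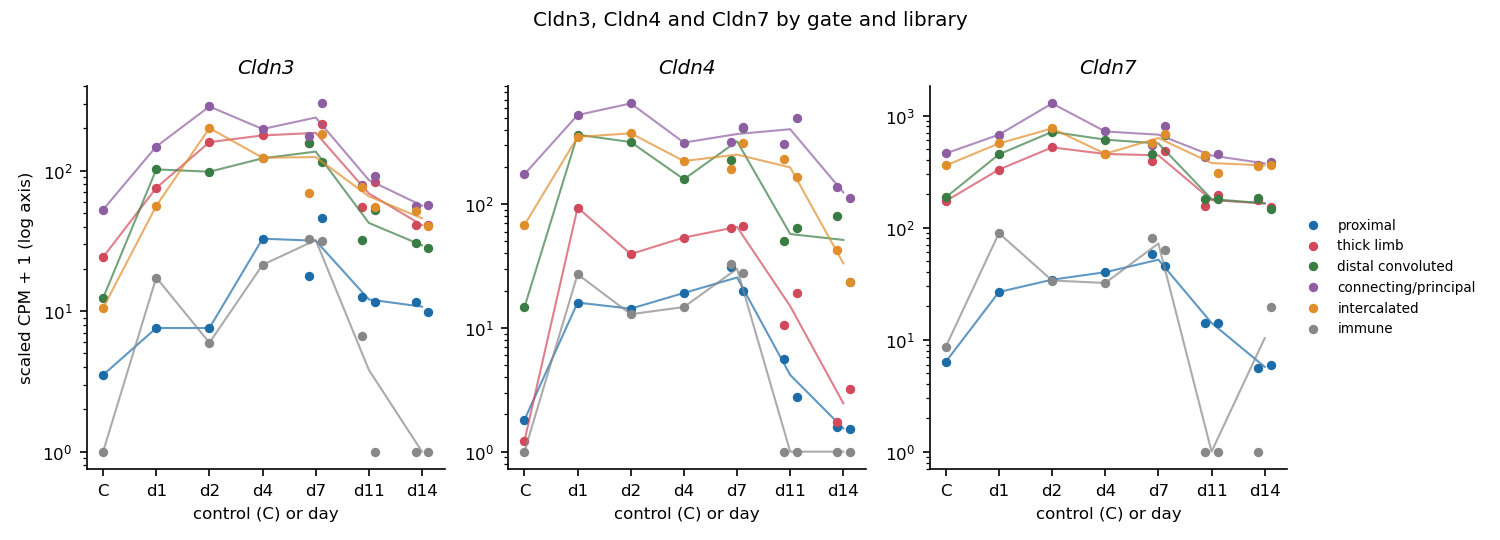
Scaled CPM plus 1 (log axis) of Cldn3, Cldn4 and Cldn7 in the 5 segment gates and in immune cells (grey), with 1 point per library and lines through the mean of each day. Thick limb Cldn4 leaves the bottom of the axis on day 1 and returns by day 14. The proximal points of Cldn4 and Cldn7 run beside or below the immune points up to day 7, with Cldn7 well below on day 1.

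Cldn3 rose in all 5 segments on day 7. In the thick limb it stood at 23.3 in the control, at 74.4, 158 and 177 on days 1, 2 and 4, at 156 and 213 on day 7, at 53.7 and 81.9 on day 11 and at 39.8 and 40.1 on day 14 (day 7: 2.97 ± 0.32, edgeR adjusted p = 3.759e-06). In principal cells it stood at 51.8 in the control, at 147, 285 and 197 on days 1, 2 and 4, at 176 and 300.0 on day 7, at 78.5 and 90.9 on day 11 and at 54.9 and 55.9 on day 14 (day 7: 2.22). All day 7 libraries were above the control in each segment, and by day 14 the principal libraries were back beside it. In distal convoluted cells the control was 11.4 and day 7 was 157 and 115 (3.61, edgeR adjusted p = 9.904e-08). In intercalated cells the control was 9.55 and day 7 was 67.9 and 180 (3.78, edgeR adjusted p = 1.753e-04). The intercalated control held 4 UMIs of Cldn3 (95% counting interval 2.60 to 24.45 scaled CPM), and the distal convoluted control held 15. Intervals were above those of immune cells in 4 of 10 libraries for intercalated and in 6 for distal convoluted cells. Proximal Cldn3 went from 2.52 in the control to 16.7 and 44.8 on day 7 (3.62 ± 0.50), but immune cells of those libraries held 31.6 and 30.6, and the proximal interval was above the immune one in 1 library of 10.

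Cldn4 in distal convoluted cells stood at 13.7 in the control, at 363, 316 and 158 on days 1, 2 and 4, at 228 and 415 on day 7, at 49.8 and 62.9 on day 11 and at 78.5 and 22.3 on day 14 (day 7: 4.66, edgeR adjusted p = 1.059e-08). In principal cells, which had the highest level before injury, it stood at 174 in the control, at 523, 650.0 and 313 on days 1, 2 and 4, at 314 and 420.3 on day 7, at 306 and 498 on day 11 and at 136 and 111 on day 14 (day 7: 1.10, edgeR adjusted p = 0.02338). Every principal library from day 1 to day 11 was above the control, and both of day 14 were below it. Intercalated cells went from 66.9 to 191 and 309 on day 7 (1.99, edgeR adjusted p = 0.002686). Proximal Cldn4 was called as well (4.76 ± 0.62), from 0.805 to 30.0 and 19.0, where immune cells held 31.6 and 26.5.

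Cldn7 passed the test on day 7 in 3 segments. It went from 172 to 396 and 487 in the thick limb (1.33 ± 0.25, edgeR adjusted p = 8.781e-04) and from 185 to 450 and 676 in distal convoluted cells (1.72, edgeR adjusted p = 7.508e-05). Proximal Cldn7 went from 5.34 to 56.7 and 44.8 (3.13 ± 0.30), beside 80.5 and 62.0 in immune cells. In principal cells, at 459 in the control and 543 and 808 on day 7, and in intercalated cells, at 358 and then 574 and 686, the difference was not called.

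Cldn1 had its highest levels in the Havcr1 gate. In the proximal gate it stood at 2.01 scaled CPM in the control, at 49.0, 31.4 and 75.5 on days 1, 2 and 4, at 53.4 and 55.2 on day 7, at 10.9 and 9.25 on day 11 and at 6.72 and 10.4 on day 14. In the Havcr1 gate it stood at 50.7, 87.3 and 143 on days 1, 2 and 4 and at 108 and 168 on day 7, and other days held too few Havcr1 cells. Immune cells of days 1, 2, 4 and 7 held 26.1, 1.98, 31.1, 25.6 and 31.2, so the Havcr1 gate had the highest level in each of these 5 libraries, and its counting interval was above that of immune cells in 4 of 5. On day 1 its interval of 42.7 to 59.7 held the proximal level, and 400 cells were in both gates. After thinning to 800 UMIs, 13.5% of day 4 Havcr1 cells and 9.04% and 12.4% of those of day 7 had a Cldn1 UMI, against 1.23%, 1.63% and 1.07% of immune cells. Havcr1 cells made up 0.0772% of tubular cells in the control, 24.7%, 3.81% and 29.7% on days 1, 2 and 4 and 22.1% and 18.4% on day 7. Within the proximal gate Cldn1 was called on day 7 (4.66 ± 0.38, edgeR adjusted p = 2.156e-05), day 11 (2.25, adjusted p = 0.003154, edgeR) and day 14 (2.05, adjusted p = 0.009464, edgeR). In proximal cells without any Havcr1 UMI, the thinned share with a Cldn1 UMI was 0.116% in the control and 0.402% and 0.656% on day 14.

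**Figure D4:**
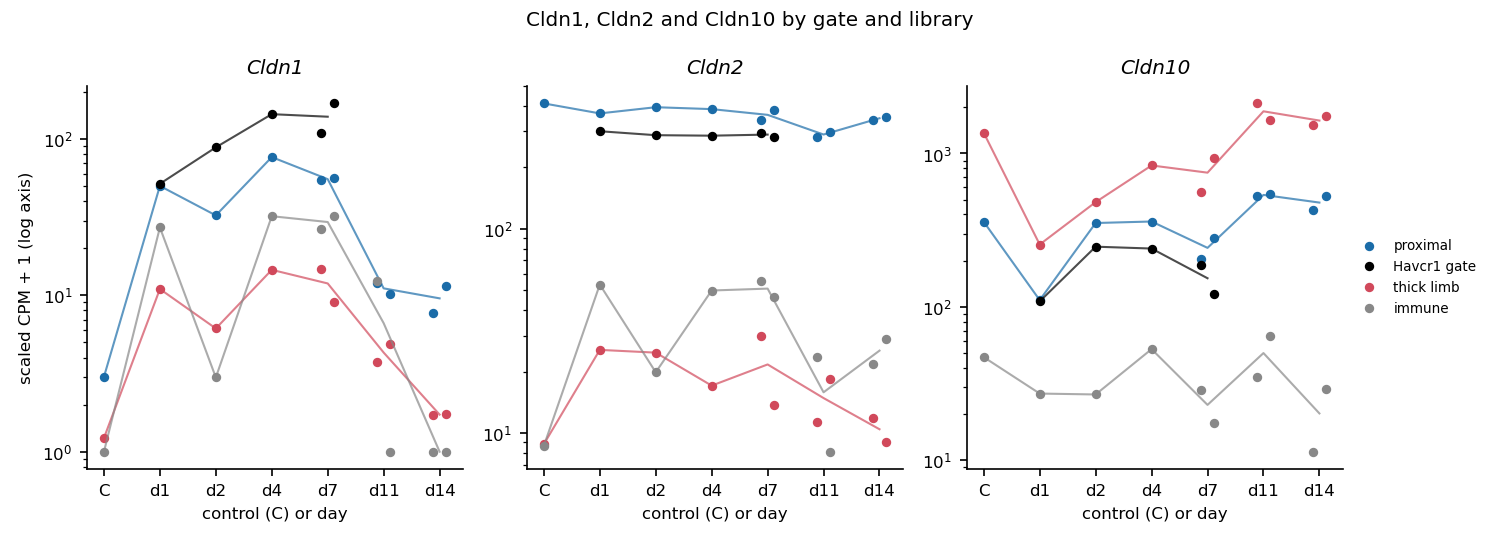
Scaled CPM plus 1 (log axis) of Cldn1, Cldn2 and Cldn10 in the proximal, Havcr1 (black), thick limb and immune (grey) gates, with 1 point per library and lines through the mean of each day. Cldn1 is highest in the Havcr1 gate on days 1 to 7, though close to the proximal gate on day 1. Cldn2 stays between 279 and 409.9 in the proximal gate, and Cldn10 is lowest on day 1 in both the thick limb and the proximal gate.

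The scaled Cldn2 level of proximal cells was not called lower on day 7. In the proximal gate it stood at 409.9 in the control, at 366, 393 and 384 on days 1, 2 and 4, at 339 and 382 on day 7, at 279 and 297 on day 11 and at 341 and 352 on day 14. The day 7 difference of -0.27 was not called, and with library totals it is 0.52, also not called, where the median of all genes is 0.76. In the Havcr1 gate Cldn2 was at 282 to 299 in all 5 libraries.

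Cldn10 in the thick limb stood at 1362 in the control, at 254, 481 and 835 on days 1, 2 and 4, at 558 and 940.0 on day 7, at 2121 and 1646 on day 11 and at 1522 and 1756 on day 14. The libraries of days 1 to 7 were all below the control and those of days 11 and 14 all above it. The day 7 difference of -0.89 ± 0.26 was called (edgeR adjusted p = 0.01979), and with library totals it is -0.23 and not called, with the second day 7 library at 1079 CPM beside 1035 in the control. Without the first day 7 library it is -0.57 and not called. Proximal Cldn10 stood at 357 in the control, at 109, 351 and 359 on days 1, 2 and 4, at 204 and 279 on day 7 (-0.64, not called, and 0.13 with library totals), and at 425 to 547 on days 11 and 14. Days 2 and 4 of the whole gate were therefore beside the control. In convoluted cells alone Cldn10 was at 248 in the control, at 360 and 319 on days 2 and 4 and at 199 and 226 on day 7. Straight cells were at 379 in the control and at 437 and 446 on days 2 and 4, with 35 such cells on day 2. Thick limb cells were 13.7% of tubular cells in the control and 11.2% and 14.2% on day 7. Of tubular UMIs they held 22.0% in the control and 15.4% and 16.9% on day 7.

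No within-segment difference of Cldn8, Cdh1 or Cdh16 from the control was called on day 7 with TMM scaling. With library totals Cldn8 was called higher in thick limb and distal convoluted cells, Cdh1 in distal convoluted and intercalated cells, and Cdh16 in proximal, distal convoluted and intercalated cells. Cldn8, a claudin of the aldosterone-sensitive distal nephron, was at 310 in control principal cells and at 288 and 320 on day 7, and at 99.3 and then 99.8 and 111 in the thick limb. Cdh1 in principal cells was at 334 in the control and 406 and 425 on day 7, and in the thick limb at 190 and then 155 and 151. In intercalated cells Cdh1 was at 177 in the control and 272 and 299 on day 7 (0.76 ± 0.35), and Cdh16 was at 313 and then 438 and 723 (0.98 ± 0.34), a difference as large as that of Cldn7 there. Distal convoluted Cdh16 was at 433 in the control and 561 and 720.3 on day 7 (0.68 ± 0.28). Proximal Cdh6 had no UMI in the control, where 3 UMIs would be 0.302 scaled CPM, and none in either day 14 library. On day 7 it had 7 and 4 UMIs, or 11.7 and 3.81 scaled CPM, and the difference was called, but no fold is given on so few UMIs. Its proximal interval was above the immune one in no library, while in the Havcr1 gate, at 3.92, 7.89 and 10.7 on days 1, 2 and 4 and 12.3 and 10.5 on day 7, it was above in 3 of 5. Proximal Cdh16 went from 237 to 414 and 461 on day 7, a difference of 0.80 that was not called.

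**Figure D5:**
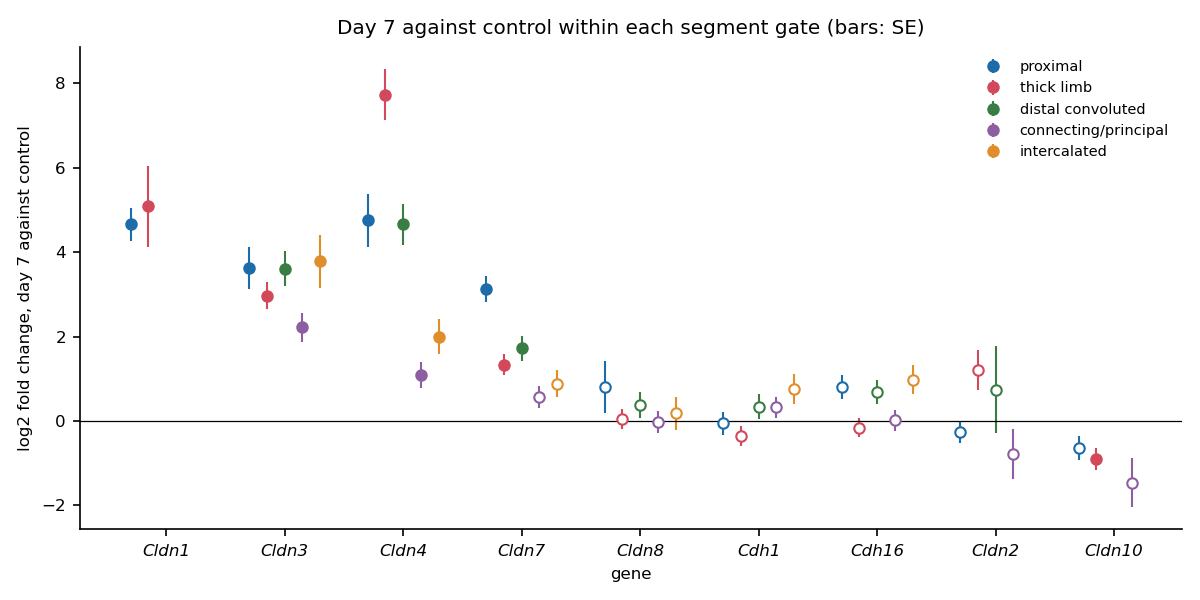
Log2 difference of day 7 against control (points, with SE bars) for 9 of the genes in each segment gate where the gene passed the filter, from edgeR; filled points are called. Cdh6 and the principal values of Cldn1 are left out because of their few UMIs. Cldn3 and Cldn4 lie above 0 and are filled in all 5 segments, and Cldn4 runs from 1.10 in principal to over 7 in thick limb cells.

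In counts within segments on day 7, 5 of 10 genes were higher in proximal cells (18.9% of all genes called), 4 higher and 1 lower of 10 in thick limb (20.4%), 3 of 7 higher in distal convoluted (16.3%), 2 of 9 higher in principal (9.21%) and 2 of 6 higher in intercalated cells (5.11%). With library totals the share of all calls that were higher went from 50.1% to 92.6%, 47.1% to 88.2%, 44.4% to 89.3%, 51.9% to 74.3% and 50% to 92.6% in these segments, and the median difference of all genes was then 0.76, 0.66, 0.76, 0.30 and 0.60. Cldn3 and Cldn4 were called in all 5 segments and under both scalings. The 5 higher in proximal cells were Cldn1, Cldn3, Cldn4, Cldn7 and Cdh6. Their proximal intervals were above those of immune cells in 4, 1, 0, 0 and 0 of 10 libraries. The 4 higher in thick limb were Cldn3, Cldn4, Cldn7 and Cldn1, and Cldn1 there had 11 and 16 UMIs on day 7 (13.7 and 8.09 scaled CPM) against 1 in the control, below the 25.6 and 31.2 of immune cells. In no library was the thick limb Cldn1 interval above that of immune cells.

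The size of the day 7 difference was not the same in all segments. Each segment's day 7 difference was tested against the mean of the other 4 in 1 model with the library as a block, on the 9 genes that passed. For Cldn4 the difference was larger in thick limb by 4.68 ± 0.97 (edgeR adjusted p = 0.003415) and smaller in principal cells by 3.69 ± 0.42 (edgeR adjusted p = 5.481e-07) and in intercalated cells by 2.62 ± 0.59 (edgeR adjusted p = 0.02565). Principal cells also had smaller differences of Cldn3, by 1.29 ± 0.33, and Cldn7, by 1.22 ± 0.22. Principal cells had the highest control level of all 3 genes. For Cldn4 the mean of the other segments includes thick limb, with 1 control UMI, and proximal cells, with 8 and at the immune level, so the sizes of the principal and intercalated values rest in part on controls near the floor. The mean also includes the proximal differences of Cldn3 and Cldn7, which lay at the immune level and, for Cldn7, were the largest of the 5 segments. For Cldn3 it includes intercalated cells, whose control held 4 UMIs. The principal and intercalated controls held 288 and 28 UMIs of Cldn4. Cdh16 was relatively lower in thick limb (-0.73 ± 0.19, edgeR adjusted p = 0.02365), and with library totals it is -0.68 and no longer called (adjusted p = 0.05387, edgeR). Proximal Cldn7 had a larger difference, by 2.09 ± 0.31, at levels that did not exceed those of immune cells. Of the 9 genes this gave 1 called in proximal (background 15.1%), 2 in thick limb (3.17%), 0 in distal convoluted (2.12%, and 0 at an unadjusted p under 0.05 by edgeR), 3 in principal (3.93%) and 1 in intercalated cells (0.521%). The share of these calls that were higher, over all genes, moved with library totals from 55.4% to 69.7% in proximal, 36.8% to 64.1% in distal convoluted and 22.4% to 2.88% in principal cells, where the median of all genes moved to -0.37.

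By day 11 fewer genes were called in every segment except intercalated cells, which had 2 on both day 7 and day 11. Proximal cells had 3 of 10 higher (Cldn1, Cldn3 and Cldn7; background 18.9%), thick limb 2 of 10 (Cldn3 and Cldn4; 10.7%), distal convoluted 2 of 7 (Cldn3 and Cldn4; 4.75%), principal 1 of 9 (Cldn4; 4.98%) and intercalated 2 of 6 (Cldn3 and Cldn4; 3.85%). Without the second day 11 library only proximal Cldn1 and thick limb Cldn4 of these were called. Without the first, the proximal calls of Cldn3 and Cldn7 and both intercalated calls were lost. Cldn3 was still higher by 1.53 in thick limb and by 2.07 in proximal cells (edgeR adjusted p = 0.01122), where the 2 libraries held 11.7 and 10.6 scaled CPM. Immune cells of day 11 were too few to set a background there: they held 1 and 0 UMIs of Cldn3, where 3 UMIs would be 16.9 and 21.3 scaled CPM. Cldn4 was still higher by 1.23 in principal cells (edgeR adjusted p = 0.02458), which without the second day 11 library was 0.82 and not called. The share of calls that were higher was 43.9% with TMM and 58.8% with library totals in proximal, 42.2% and 55.6% in thick limb, 39.5% and 63.5% in distal convoluted and 40.0% and 70.6% in intercalated cells.

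On day 14, proximal cells had 2 of 10 higher (Cldn1 and Cldn3; background 7.74%) and distal convoluted cells 1 of 7 (Cldn4; 2.09%). Proximal Cldn3 stood at 10.7 and 8.84 against 2.52 in the control (1.93, edgeR adjusted p = 0.02645), a call lost without either day 11 library (1.93 and 1.93) or the first of day 14 (1.77), while the 71 and 68 immune cells held no UMI, where 3 UMIs would be 31.0 and 28.0 scaled CPM and the exact 95% upper limits were 38.1 and 34.4. A background as high as the proximal Cldn3 or Cldn1 level of day 14 was therefore not detectable in these cells. The straight proximal cells held 3.07 in the control and 14.2 and 12.4 on day 14. Distal convoluted Cldn4, at 78.5 and 22.3 against 13.7, was higher by 1.995 (edgeR adjusted p = 0.031), and without the first day 14 library it is not called. None of the genes was called in thick limb (background 1.44%, and 1 at an unadjusted p under 0.05 by edgeR), principal (2.0%, 0 unadjusted) or intercalated cells (0.301%, 1 unadjusted). The share of all calls that were higher went from 45.2% to 67.4% with library totals in proximal, from 64.7% to 76.3% in distal convoluted and from 46.0% to 29.8% in principal cells.

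Days 1, 2 and 4 had 1 library each, so their differences have no replicate check and are given as folds past 2 among genes of at least 5 scaled CPM on average. In tubular cells 4 of 9 genes were past 2-fold higher and 1 lower on day 1 (background 22.2% of genes past 2-fold), 4 higher on day 2 (15.9%) and 3 higher on day 4 (19.6%). Cldn1 was 19.9-fold higher on day 1 and 63.5-fold on day 4, Cldn4 6.97-fold on day 1, and Cldn10 was at 0.20 of the control on day 1. In proximal cells 3 were higher and 1 lower on day 1 (30.2%), 4 higher and 1 lower on day 2 (22.1%) and 4 higher on day 4 (23.7%). The higher genes were Cldn1, Cldn4 and Cldn7 on each of these days, with Cdh16 on day 2 and Cldn3 on day 4. Cdh16 was the higher in convoluted cells, and straight cells were few on day 2. Within convoluted cells Cdh16 was at 336 in the control and 590 on day 2. Within straight cells it was at 214.5 in the control and 250 in the 35 cells of day 2. Proximal intervals of Cldn4 and Cldn7 were above those of immune cells in 0 of 10 libraries. For Cldn1, Cldn3 and Cdh16 they were above in 4, 1 and 10. The lower gene was Cldn10 on day 1, at 0.306 of the control, and Cdh1 on day 2, at 0.323. Straight cells, in which both genes were higher, were few on these days: within convoluted cells Cldn10 was at 248 in the control and 109 on day 1, and Cdh1 at 23.7 in the control and 12.8 on day 2. Immune cells of day 2 held 10.9 of Cdh1. In thick limb 4 were higher and 1 lower on day 1 (23.3%), 4 higher and 1 lower on day 2 (22.9%) and 4 higher on day 4 (18.7%). The higher genes were Cldn3 and Cldn4 on each day, Cldn2 on days 1 and 2, Cldn1 on days 1 and 4, and Cldn7 on days 2 and 4. On day 1 thick limb Cldn1 and Cldn2 were at 9.97 and 24.53, below the 26.15 and 52.31 of immune cells. Their thick limb intervals were above the immune ones in 0 of 10 libraries. For Cldn3, Cldn4 and Cldn7 they were above in 7, 5 and 10. Cldn10 was the lower gene of the thick limb, at 0.186 of the control on day 1 and 0.353 on day 2. With library totals the median of all genes on these days lay at 0.25 to 0.51 on the log2 scale, 4 or 5 of the genes were past 2-fold higher in each case, and Cldn10 on day 2 in thick limb was no longer past 2-fold lower.

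Other junction genes, in lists drawn up with earlier results of these data known, were counted in the same tubular test of day 7 against control, where 33.9% of all genes were called. Of 11 other claudins tested, 2 were higher and 1 lower: Cldn6 (2.28), Cldn23 (3.65) and Cldn18 (-2.39). Cldn23 and Cldn18 were of low level, at 0.272 and 1.54 scaled CPM in the control. On day 7 Cldn18 was at 0.159 and 0.354. Of 7 other cadherins 5 were higher and none lower, with a median of 1.91 against 0.05 for all genes, and they included P-cadherin Cdh3 (2.27 ± 0.24), Cdh17 (3.27) and Cdh13 (3.81). Cdh17 was of low level throughout, at 0.0906 scaled CPM in the control and 0.796 and 1.06 on day 7. Cdh13 was at 0.589 in the control. Of 21 cytoplasmic and membrane partners of the junction, 8 were higher and 1 lower: the scaffold gene Cgn (1.32) and the nectin gene Pvrl2 (1.85) were among those that rose, and the cingulin-like gene Cgnl1 fell (-1.36). Of 7 desmosome genes 6 were higher, among them Perp (1.42), Dsg2 (1.46) and Ppl (2.82). Of 15 regulators 4 were higher and 3 lower. Klf5 (4.41), Zeb1 (2.21) and Epcam (1.26), whose protein binds claudin-7, were among the higher. Hnf4a (-2.30), Klhl3 (-1.04) and Wnk4 (-0.94), which act in proximal identity and in distal salt handling, were lower. Klf5 and Zeb1 were low in the control, at 0.770 and 1.22 scaled CPM. Epcam was among the genes that admitted cells with no segment to the tubular cells. Its tubular value is therefore not independent of that gate. On day 11, where 17.6% of all genes were called, the junction partners had 0 higher and 4 lower of 21, the desmosome genes 1 higher and 2 lower of 7, the regulators 1 higher and 1 lower, and the other claudins and cadherins none. On day 14 (7.56%) the desmosome genes had 1 higher and 1 lower, the other claudins 1 lower, the regulators 1 lower, and the other lists none. Within proximal cells on day 7, 18.9% of all genes were called. Other claudins had none called of 9, other cadherins 3 higher of 7, and desmosome genes 4 higher of 7. Junction partners had 5 higher and 1 lower of 21, and regulators 1 higher and 1 lower of 14. Proximal cells were a smaller part of tubular cells on day 7, and the part of this in the tubular list values was not tested.

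The genes whose level ran most like each of the 10 over the 50 sums of 5 segments and 10 libraries are a description, since the sums share libraries. Cldn1 was nearest to Cxcl1 (Pearson r = 0.802), Tgm2 (0.778) and Havcr1 (0.767). Cldn2 was nearest to Slc4a4 (0.893) and Hnf4a (0.879), and Cldn10 to Bmp4 (0.856) and Cxcl12 (0.854). Cldn3 was nearest to Plp2 (0.862), Cldn4 to Frk (0.906) and Btg1 (0.895), and Cldn7 to Epcam (0.956) and Cd9 (0.953). Cldn8 was nearest to Tmem213 (0.965), Cdh1 to Tspan1 (0.928) and Cdh16 to Gipc1 (0.864). Cdh6 was too low to be ranked.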

How the data were processed

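The deposited files are tables of raw counts, whole-number UMIs per gene and cell barcode, 1 table per library, made by the authors with Bowtie2 2.2.7 and mouse build mm10, per the submitters' processing notes; how UMIs were collapsed is not given in the sources used here. Barcodes were used from 500 UMIs and 500 genes upward and with a mitochondrial share of no more than 50%; the tables of day 11 list barcodes of fewer genes than the others. Scrublet (scanpy 1.11.5) called almost no doublets by its own threshold, so the 5% of cells with the highest scores in each library were removed. Libraries shared at most 4 barcodes. Counts were summed by library over tubular cells or over a segment gate of at least 20 cells, and the sums were fitted with edgeR 4.0.16 in R 4.3.3 (TMM scaling, filterByExpr, quasi-likelihood F test, Benjamini-Hochberg over all genes tested). Tests of tubular cells and of each segment used all 10 libraries, which share 1 estimate of the spread. Only the replicated days inform it, and the 1 control library was assumed to vary like them. Fits between segments carried the library as a block, and the test of day 7 differences between segments was added after seeing the data. Levels are TMM-scaled CPM, on 1 scale over all gates for display. Intervals are exact at 95% and cover counting error only. The scripts were tested on simulated data. Library totals as scaling, and other alternatives given in the closing section, were also run.

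The genes and the lists were chosen with earlier results of these data known. The text names the 10 genes, up to 3 genes per direction of each other list (those called with the largest tubular difference on day 7), and, for each of the 10, genes of highest Pearson r among those with a mean of at least 20 CPM. Some genes that this rule names are not reported here.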

Additional observations from a re-analysis of the deposited data

Results flagged for a closer look

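These values stand out because the day 7 difference of 1 segment departed from the mean of the other 4 segments in a test of that difference (edgeR, adjusted over all genes, log2 scale). Cldn4 departed in 3 segments: 4.68 in thick limb, where the control had 1 UMI, -3.69 in connecting and principal cells and -2.62 in intercalated cells. In connecting and principal cells the values were -1.29 for Cldn3 and -1.22 for Cldn7. Cldn7 in proximal cells gave 2.09, with a level that did not exceed that of immune cells in the same libraries. Cdh16 in thick limb gave -0.73 and lost its call with library totals. The control is 1 library in each of these comparisons.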

How the results depend on the processing

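The 107 called values of single genes were recomputed under 1821 alternatives, of which 1763 kept direction and call, 57 kept direction but not the call, and 1 reversed: Cldn2 in tubular cells on day 11 against day 7, at -0.0055 with library totals. Values not called had 2228 alternatives; 119 had the other sign, 80 became called with the same sign, and 1 with the other (Cdh16 in thick limb against other segments, 0.25 with control and days 11 and 14 only). With library totals the uncalled proximal day 7 differences of Cldn2 and Cldn10 became 0.52 and 0.13. On day 14 in tubular cells 1 gene was called. It was 2 with RLE size factors, 2 with library totals, 2 with DESeq2, 2 with no cells removed as doublets, 3 with a mitochondrial share up to 25%, 5 with no filter on low counts and 5 with only the groups compared. The genes added in these settings were from among Cldn4, Cldn7, Cdh1 and Cdh6, all lower than the control. Proximal day 11 went from 3 to 5 with no filter. With library totals day 7 went from 3 to 6 in distal convoluted and from 2 to 5 in intercalated cells. With a gate ratio of 5, day 11 went to 0 in distal convoluted and in intercalated cells, day 14 went to 0 in distal convoluted cells, and distal convoluted cells against other segments went from 6 to 2. Leaving out each replicate gave the following ranges of genes called. Tubular: day 7, 8 to 10; day 11, 1 to 4; day 14, 1 to 5; day 11 against 7, 6 to 9; day 14 against 7, 9 to 9; day 14 against 11, 1 to 5. Proximal: 5 to 6, 1 to 5 and 1 to 4 on days 7, 11 and 14. Thick limb: 4 to 6, 1 to 2 and 0 to 0. Distal convoluted: 3 to 4, 0 to 2 and 0 to 1. Principal: 2 to 4, 0 to 2 and 0 to 0. Intercalated: 2 to 3, 0 to 2 and 0 to 0. Without either day 7 library more genes were called on day 14 (tubular 5, proximal 4), in day 14 against 11 (5), and on day 11 in proximal (5) and principal cells (2); without the first, principal day 7 had 4; without day 1, tubular day 14 had 2. Without the second day 11 library, day 11 counts were 1 in tubular, proximal and thick limb cells and 0 in distal convoluted, principal and intercalated cells; without the first they were 1 in proximal and 0 in intercalated cells. Without any 1 library of days 11 or 14, day 14 against 11 had 1, and proximal day 14 had 1 without either day 11 library or the first of day 14. Without the first day 14 library, distal convoluted day 14 had 0. Fewer samples are the construction of these settings; the cause of the other changes was not tested. With a replicate block, the comparisons between days 7, 11 and 14 called 9, 9 and 3 genes, as without it; same-numbered libraries did not deviate together (r of 0.033, -0.038 and -0.049), so the block pairs numbers only. The single control library enters every comparison with the control, and few UMIs limit Cdh6 and the intercalated and distal convoluted gates.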
